A study of Mus musculus with 6 samples.

Results

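Nuclear receptors for steroid hormones, one receptor co-chaperone and the coactivators that work with the receptors were followed in LβT2 cells, a clonal mouse line with the features of pituitary gonadotropes that descends from a tumour driven by a viral T antigen transgene. The set held 9 genes of the 47069 in the count table: the oestrogen receptors Esr1 and Esr2, the progesterone receptor Pgr, the glucocorticoid receptor Nr3c1, the mineralocorticoid receptor Nr3c2, the co-chaperone Fkbp5 and the coactivators Ncoa1, Ncoa2 and Ncoa3. They were chosen by gene symbol, with earlier results of these data known. All 6 samples were at passage 14 and had received 2 nM GnRH, the hypothalamic hormone that drives gonadotropin release, for 40 min before trypsinization. The 3 fresh samples were lysed at once, whereas the 3 RNA-Best samples were first kept refrigerated in RNA-Best, a proprietary buffer meant to hold RNA steady in intact cells. There was no sample without GnRH, so no effect of GnRH is described here. The comparison asks whether preservation left the measured level of these transcripts as it was in fresh cells. The labels leave unsaid whether the 3 samples of each group were grown apart, and p-values therefore measure the spread between these samples, which may be technical.

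Steroid receptors are transcription factors that wait in complexes with heat shock chaperones, bind their hormone, enter or stay in the nucleus and attach to DNA as dimers. Fkbp5 sits in the chaperone complex of the glucocorticoid receptor, lowers its affinity for hormone, and is itself a classic target of that receptor. Ncoa1, Ncoa2 and Ncoa3 are the steroid receptor coactivators, large proteins that dock on the hormone-bound receptor and bring in histone acetyltransferases. In gonadotropes, oestradiol, progesterone and glucocorticoids feed back on gonadotropin synthesis through these receptors.

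The part of the receptors that reads DNA is alike at the sequence level, which bears on whether reads of one receptor could be counted for another. The stretch of 24 coding bases around the P-box, the DNA-reading helix at the base of the first zinc finger, is shown for 4 receptors of the set to let the reader compare them. It was read from the GRCm38 genome annotation, runs 5′ to 3′ on the coding strand, lies inside a single coding exon in each gene, and carries in capitals the 11 positions at which the 4 genes are not all the same.
Esr1, chr10:4746768-4746791 (+): tgCgAAGgCtgCaaGgCTttCttT
Esr2, chr12:76165465-76165488 (-): tgTgAAGgAtgTaaGgCCttTttT
Pgr, chr9:8903708-8903731 (+): tgTgGGAgCtgCaaGgTCttCttT
Nr3c2, chr8:77085627-77085650 (+): tgCgGCAgCtgCaaAgTCttCttC
Pgr and Nr3c2 were identical at 20 of these 24 positions, Esr1 and Esr2 at 19, and Esr2 and Nr3c2 at 14. Even so, the longest identical run between the transcripts of any pair of the 9 genes was 24 bases, far shorter than a read. Windows of one read length that also occur in another gene made up 0% of 7 of the genes, 0.813% of Nr3c2 (in Gm10649) and 0.676% of Ncoa3 (in Sulf2). The exons of Ncoa3 and of Sulf2, on the opposite strand, overlap by 154 bases, or 1.95% of the exonic bases of Ncoa3, and the source used here does not give the strand setting of the counting.

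The libraries differed in depth. Fresh libraries held 14477304 to 47438746 counts and RNA-Best libraries 4909418 to 11999363, so that the fresh group had 3.99 times the counts of the RNA-Best group, and 3 counts, taken as the limit of what a count of 0 allows, equalled 0.0632 to 0.207 CPM (counts scaled to a common library total) in fresh and 0.25 to 0.611 CPM in RNA-Best libraries. Gonadotrope markers summed to 4318 to 4351 CPM in fresh and 3801 to 3903 CPM in RNA-Best libraries, with Fshb at 0 throughout, while the marker lists of other cell types summed to at most 16.2 CPM, apart from endothelial markers at 197 to 213 CPM, of which Cdh5 made up a mean of 156 CPM. In bulk samples, fewer cells of a type and less RNA per cell cannot be told apart. What lay behind the lower gonadotrope sum in RNA-Best libraries was not tested.

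The levels fell into 3 tiers. Fkbp5, the coactivators and Nr3c1 stood at 51.1 to 209 CPM in every library, Esr1 at 1.83 to 2.36 CPM, and Pgr, Esr2 and Nr3c2 at or below 1.02 CPM. The filter on low counts left 7 of the 9 genes in the test, Esr2 and Nr3c2 being too rare; Pgr passed it through its RNA-Best values alone, so the count of tested genes is not free of the outcome. With edgeR's quasi-likelihood test at an adjusted p under 0.05, Nr3c1, Pgr, Ncoa1, Ncoa2 and Ncoa3 were higher in RNA-Best and none of the 7 was lower. Among all 14736 tested genes, 26% were higher and 24.8% were lower, 50.8% in all.

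**Figure D1:**
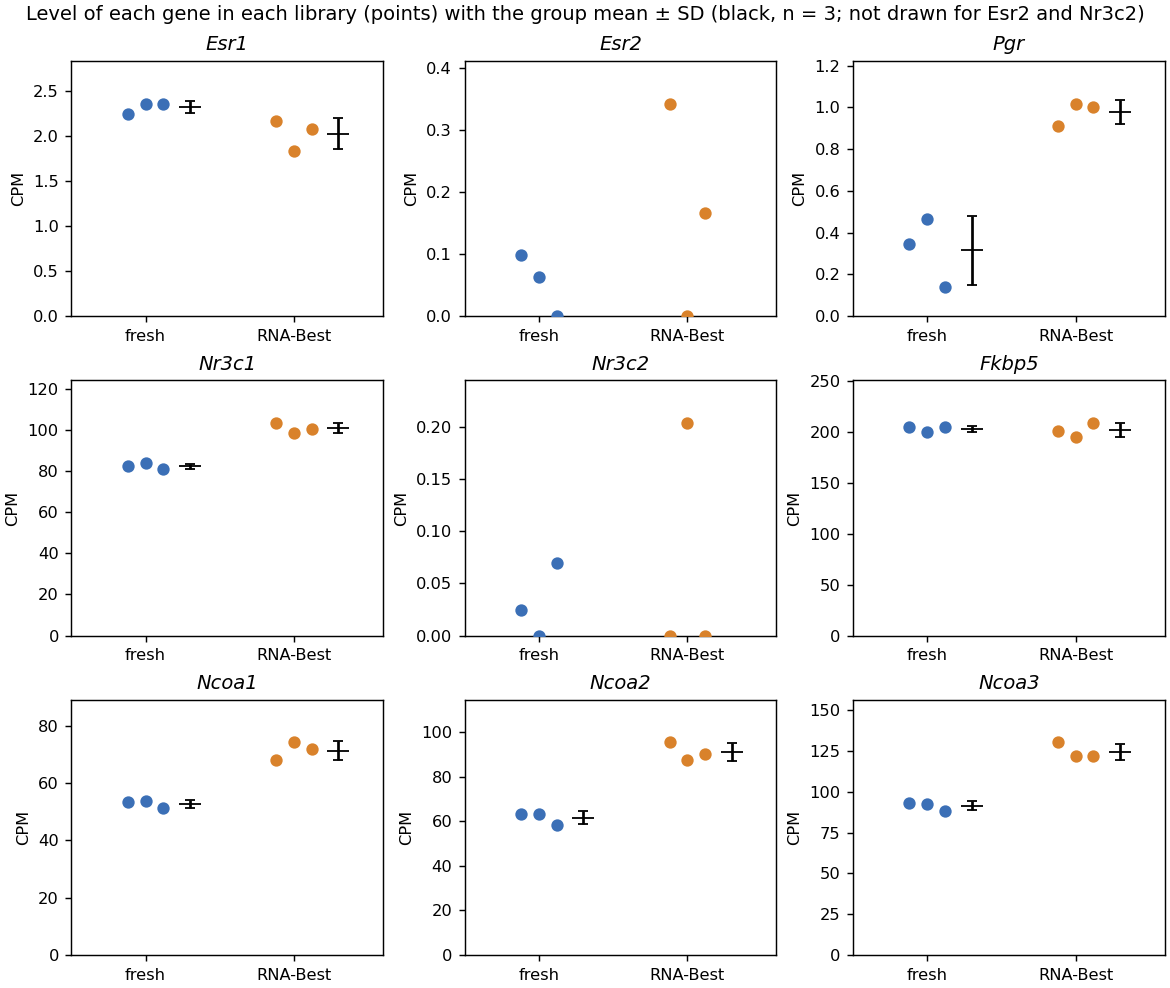
CPM of each of the 9 genes (vertical axes, each from 0) in the 3 fresh (blue) and 3 RNA-Best libraries (orange), with the group mean ± SD in black where levels allow. Nr3c1 and the 3 coactivators sit apart between the groups, Fkbp5 overlaps, and Esr2 and Nr3c2 rest on 0 to 4 counts a library.

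Nr3c1 (ENSMUSG00000024431, chromosome 18, minus strand), the glucocorticoid receptor, was the one receptor of the set with a substantial level. It was measured at 82.25, 83.71 and 80.95 CPM in fresh libraries and at 103.4, 98.4 and 100.7 CPM in RNA-Best libraries, from 483 to 3971 counts a library. Every RNA-Best library lay above every fresh one, a pattern that 57.5% of all tested genes showed in one direction or the other. The group means were 82.3 ± 1.38 and 100.8 ± 2.503 CPM (SD, n = 3 each), and edgeR gave a log2 fold change of 0.28 (SE 0.04, adjusted p = 1.37e-07). The call depended on how gene length was handled. An offset for GC content kept the call but brought the log2 fold change to 0.17, or 0.11 in the form of the offset that was run first (adjusted p = 0.0118, edgeR).

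Esr1 (ENSMUSG00000019768, chr10:4611593-5005614), the main oestrogen receptor of the pituitary, was present at a low level. Fresh libraries gave 2.245, 2.361 and 2.362 CPM, from 91, 112 and 34.2 counts, and RNA-Best libraries gave 2.166, 1.833 and 2.083 CPM, from 19, 9 and 25 counts. The 3 RNA-Best values were all lower than the fresh ones, but the edgeR difference did not pass the test, with a log2 fold change of -0.18 (SE 0.19, adjusted p = 0.510). With an offset for the length of the exon union it did pass (-0.51, adjusted p = 0.0442, edgeR). With the longest transcript it did not (-0.41, adjusted p = 0.125, edgeR). At 9 counts in the shallowest library the exact 95% binomial interval ran from 0.838 to 3.48 CPM, which covers all fresh values. This interval, like the others given here, covers counting error only.

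Pgr (ENSMUSG00000031870, chr9:8899833-8968611), the progesterone receptor and a target of oestrogen in many tissues, was rare in both groups and higher in RNA-Best libraries. Its counts were 14, 22 and 2 in fresh libraries and 8, 5 and 12 in RNA-Best libraries, or 0.345, 0.464 and 0.138 CPM against 0.912, 1.02 and 1 CPM. The groups did not overlap in CPM, although single libraries are loosely fixed: the exact 95% binomial intervals of the deepest fresh library (0.291 to 0.702 CPM) and of the first RNA-Best library (0.394 to 1.80 CPM) overlap. The log2 fold change was 1.36 (SE 0.35, adjusted p = 0.00142, edgeR), a p that is limited by the fact that Pgr entered the test through the group in which it was high. With no filter on low counts it was 1.32 (adjusted p = 0.00308, edgeR). It ran from 1.22 to 1.70 when single libraries were left out, and Pgr fell below the low-count filter once every library was thinned to the depth of the smallest.

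Esr2 (ENSMUSG00000021055, chr12:76120419-76177259), the second oestrogen receptor, and Nr3c2 (ENSMUSG00000031618, chr8:76899442-77245012), the mineralocorticoid receptor, were close to the limit of detection. Esr2 had 4, 3 and 0 counts in fresh and 3, 0 and 2 counts in RNA-Best libraries. Nr3c2 had 1, 0 and 1 counts in fresh and 0, 1 and 0 counts in RNA-Best libraries. No difference was detectable at this depth for either. The exact permutation test of log2(CPM + 1), two-sided over 3 against 3 libraries, gave p = 0.5 for Esr2 and p = 1 for Nr3c2, with 0.1 the smallest p that it allows, so it could not have passed 0.05. The edgeR fit without a filter on low counts gave a log2 fold change of 1.38 (SE 0.94, adjusted p = 0.339) for Esr2. For Nr3c2 it gave 0.77 (SE 1.84, adjusted p = 0.787, edgeR). These errors leave a large increase possible for Esr2, and large differences in either direction for Nr3c2.

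Fkbp5 (ENSMUSG00000024222, chr17:28399094-28517527), the co-chaperone and glucocorticoid target, was the best measured of the 9 genes, with 961 to 9487 counts a library. Fresh libraries stood at 204.7, 200 and 204.7 CPM and RNA-Best libraries at 201.2, 195.7 and 209.1 CPM. The groups overlapped, and edgeR gave a log2 fold change of -0.01 (SE 0.03, adjusted p = 0.762). The means were 203.1 ± 2.74 and 202.0 ± 6.69 CPM (SD, n = 3 each). This result too depended on how gene length was handled. With an offset for the length of the exon union Fkbp5 was a called decrease (-0.23, adjusted p = 3.23e-07, edgeR). With the longest transcript it was not called (-0.06, adjusted p = 0.167, edgeR).

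The 3 coactivators were each higher in RNA-Best libraries. Ncoa1 (ENSMUSG00000020647, chr12:4247362-4477182) stood at 53.3, 53.5 and 51.1 CPM in fresh and 67.8, 74.1 and 71.9 CPM in RNA-Best libraries, which edgeR put at a log2 fold change of 0.41 (SE 0.04, adjusted p = 1.18e-09). Ncoa2 (ENSMUSG00000005886, chr1:13139105-13374083) stood at 63.5, 63.2 and 58.3 CPM in fresh and 95.5, 87.4 and 90.4 CPM in RNA-Best libraries, a difference of 0.54 on the log2 scale (SE 0.04, adjusted p = 7.97e-13, edgeR). Ncoa3 (ENSMUSG00000027678, chr2:165992636-166073242) stood at 93.0, 92.8 and 88.2 CPM in fresh and 130.3, 121.8 and 121.7 CPM in RNA-Best libraries, with 0.43 on the same scale (SE 0.04, adjusted p = 1.01e-11, edgeR). In none of the 3 did the groups overlap, as in 57.5% of all tested genes. With an offset for the length of the exon union the 3 fold changes shrank, to 0.22 for Ncoa1, 0.17 for Ncoa2 and 0.26 for Ncoa3. Their order turned, that of Ncoa2 then being the smallest. Ncoa1 lost its call with the longest transcript in the form of the offset that was run first (0.09, adjusted p = 0.0935, edgeR).

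Ratios of counts inside one library do not depend on its total. On the log2 scale, the ratio of Ncoa1 to Fkbp5 was higher in RNA-Best libraries by 0.45, that of Ncoa2 to Fkbp5 by 0.57, that of Ncoa3 to Fkbp5 by 0.46, and that of Nr3c1 to Fkbp5 by 0.30. The ratios of Ncoa1, Ncoa2 and Ncoa3 to Nr3c1 were higher by 0.14, 0.27 and 0.155, without overlap. Among the coactivators, Ncoa2 gained 0.12 on Ncoa3 without overlap, whereas the ratio of Ncoa3 to Ncoa1 differed by 0.01 with overlapping groups. These ratios carry no length offset. With that of the exon union, the log2 fold change of Ncoa2 (0.17) was below that of Ncoa3 (0.26). Every ratio given here, except that of Ncoa3 to Ncoa1, had the smallest exact two-sided permutation p that 3 against 3 libraries allow. That permutation p was 0.1 (Benjamini-Hochberg adjusted 0.125 over 10 ratios), which cannot pass 0.05.

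Levels of different genes were compared per length, as TPM (counts per base of exon, scaled to a common total) from the union of annotated exons. The order over the 6 libraries was Fkbp5 at a mean of 55.9 TPM, Ncoa3 at 35.9, Nr3c1 at 31.2, Ncoa1 at 18.96, Ncoa2 at 12.8, Esr1 at 0.415, Pgr at 0.201, Esr2 at 0.0885 and Nr3c2 at 0.0202 TPM. Neighbours in this order did not overlap within either group from Fkbp5 down to Esr1 and Pgr, while Pgr and Esr2 overlapped in fresh libraries, and Esr2 and Nr3c2 in both groups. With the length of the longest transcript in place of the union of exons, Ncoa2 came above Ncoa1, with overlap in fresh libraries. Ncoa3 and Nr3c1 then overlapped in both groups, with Ncoa3 the higher in 3 of 6 libraries, and Fkbp5 stood at 112 TPM. Of the summed TPM of the 5 receptors, Nr3c1 made up 97.9% ± 0.19 in fresh and 97.6% ± 0.24 in RNA-Best libraries (SD, n = 3 each).

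**Figure D2:**
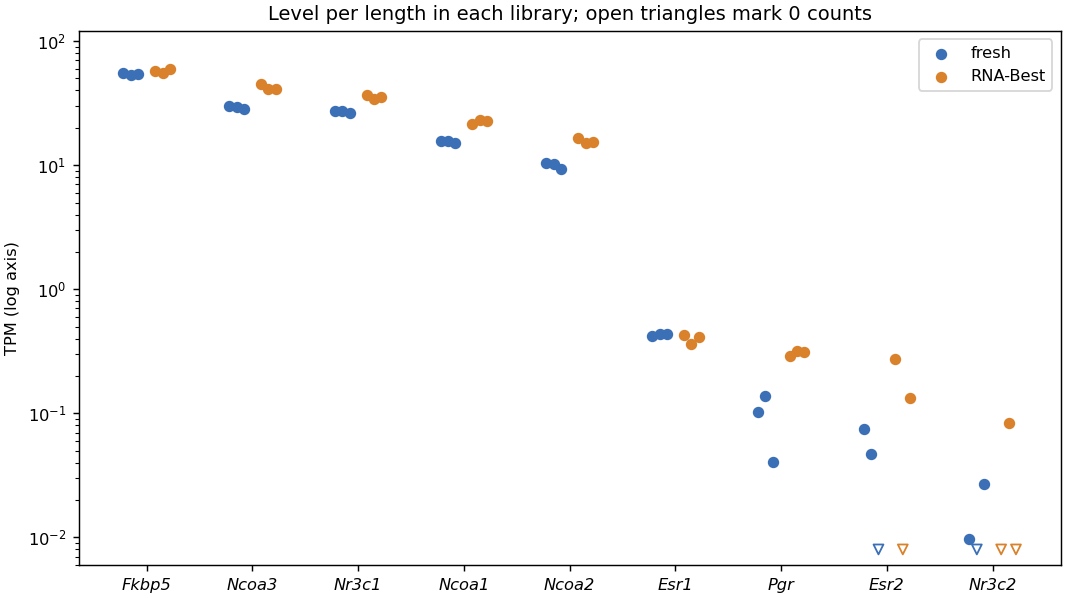
TPM (vertical log axis) of the 9 genes in order of their mean over 6 libraries, fresh in blue and RNA-Best in orange, with open triangles for 0 counts. Ncoa2, the lowest of the upper 5 genes, stands 23.2 times above Esr1 in fresh and 39.2 times above it in RNA-Best libraries.

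The annotated promoters of these genes are of unlike kinds. Windows of 250 bases upstream of the start were found in RefSeq (GRCm38.p6) for 6 of the 9 genes. They are printed for Ncoa1 as a coactivator that was higher, for Fkbp5 as the gene that overlapped between the groups, and for Pgr as the rarest gene that was tested. Capitals mark AGAACA (one arm of a glucocorticoid response element), GGTCA (one arm of an oestrogen response element), GGGCGG (the GC box) and CCAAT, each on either strand.
Ncoa1, chr12:4477183-4477432 (-): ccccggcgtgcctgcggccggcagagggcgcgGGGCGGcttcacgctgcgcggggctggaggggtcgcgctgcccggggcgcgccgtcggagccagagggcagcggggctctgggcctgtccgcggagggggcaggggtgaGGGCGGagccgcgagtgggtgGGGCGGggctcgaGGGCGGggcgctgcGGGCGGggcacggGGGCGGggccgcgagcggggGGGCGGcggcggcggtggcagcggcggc
Fkbp5, chr17:28486150-28486399 (-): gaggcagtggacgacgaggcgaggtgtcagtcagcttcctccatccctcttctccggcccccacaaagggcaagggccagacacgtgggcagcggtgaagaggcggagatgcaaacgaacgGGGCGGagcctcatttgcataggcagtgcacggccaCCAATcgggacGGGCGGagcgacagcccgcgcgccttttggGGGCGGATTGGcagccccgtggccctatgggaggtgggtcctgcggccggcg
Pgr, chr9:8899583-8899832 (+): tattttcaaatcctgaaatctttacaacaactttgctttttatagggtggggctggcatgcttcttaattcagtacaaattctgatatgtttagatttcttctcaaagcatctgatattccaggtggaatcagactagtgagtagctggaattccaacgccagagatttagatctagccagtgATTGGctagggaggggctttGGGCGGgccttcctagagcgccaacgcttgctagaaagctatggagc
The Ncoa1 window held 40 CpG and 7 GC boxes, the Fkbp5 window 23 CpG, 3 GC boxes and 2 CCAAT motifs, and the Pgr window 4 CpG with 1 GC box and 1 CCAAT motif. The median over 32851 such windows was 6 CpG. None of these 3 windows held AGAACA or GGTCA, while those of Esr2 and Nr3c2, not printed, held 2 GGTCA matches each. AGAACA and GGTCA occurred in 16.1% and 35.2% of all windows, GGGCGG in 32.7% and CCAAT in 33.9%. These matches are a description of the letters in the windows.

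The 7 tested genes are long, and in these data the fold change moved with length. Their exons cover 7.68 to 15.6 kb. Of the 5497 tested genes with at least 5 kb of exon, a limit set after the data were seen, 52.3% were higher in RNA-Best and 8.28% lower, with a median log2 fold change of 0.17, whereas of the 9180 shorter genes 10.2% were higher and 34.7% lower, with a median of -0.10. Within the longer genes, 91.7% had a smaller log2 fold change than Ncoa2, 84.7% than Ncoa3, 83.1% than Ncoa1, 68.5% than Nr3c1, 21.4% than Fkbp5 and 6.20% than Esr1. What produced the relation to length was not tested.

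**Figure D3:**
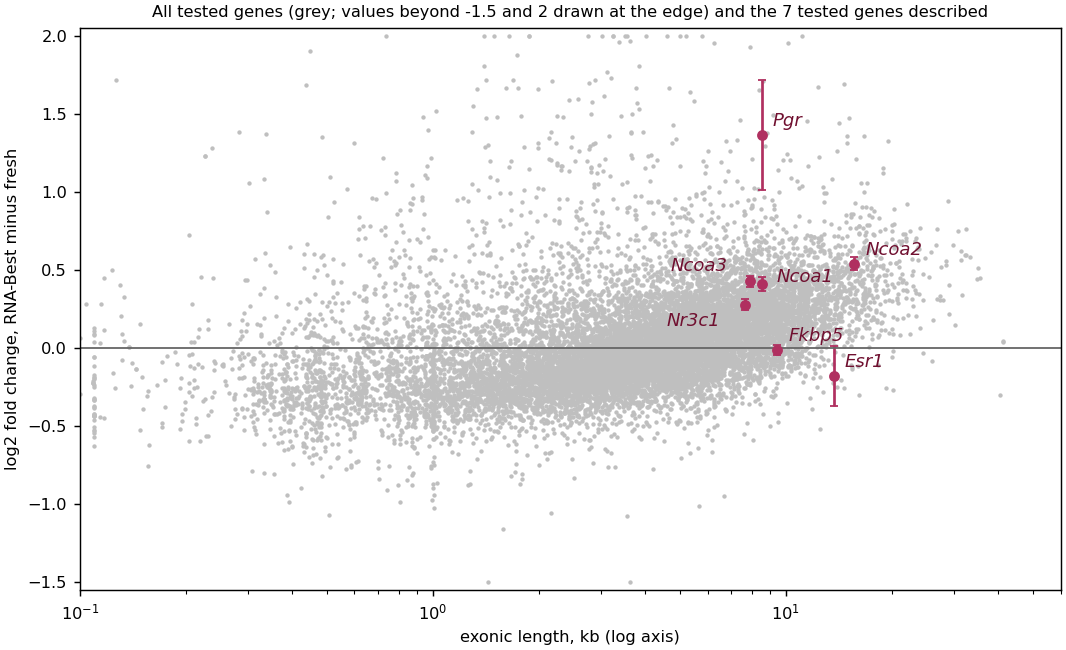
Log2 fold change (RNA-Best minus fresh, vertical axis) against exonic length in kb (horizontal log axis) for all tested genes in grey and the 7 tested genes of the set in red with standard errors. Nr3c1 and the coactivators lie within the upward drift of the long genes, Fkbp5 and Esr1 toward its lower side, and Pgr above it.

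With an offset for exonic length in edgeR, 18.6% of all genes were called higher and 19.5% lower, and the differences of the coactivators shrank. Their log2 fold changes were then 0.22 for Ncoa1, 0.17 for Ncoa2 and 0.26 for Ncoa3, with adjusted p of 1.19e-04, 0.00111 and 5.45e-07. Nr3c1 stood at 0.12 (adjusted p = 0.00896) with that offset, but at 0.04 (adjusted p = 0.446) when the longest transcript gave the length, so that its call was lost; that choice called 16.8% of all genes higher and 17.2% lower. Fkbp5 turned to a called decrease of -0.23 (adjusted p = 3.23e-07) with the exon union and was not called with the longest transcript (-0.06, adjusted p = 0.167). Esr1 was at -0.51 (adjusted p = 0.0442) with the exon union and at -0.41 (adjusted p = 0.125) with the longest transcript. Pgr, with the same limit on its test, was at 1.18 and 1.10 (adjusted p = 0.00802 and 0.0146). The way these offsets were fitted was itself changed after a first form had been run. That first form left 13.6% of all genes higher and 30% lower, and under it Nr3c1 was not called (0.08, adjusted p = 0.0634), nor was Ncoa1 when the longest transcript gave the length (0.09, adjusted p = 0.0935), where 12.1% of all genes were higher and 28.3% lower.

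**Figure D4:**
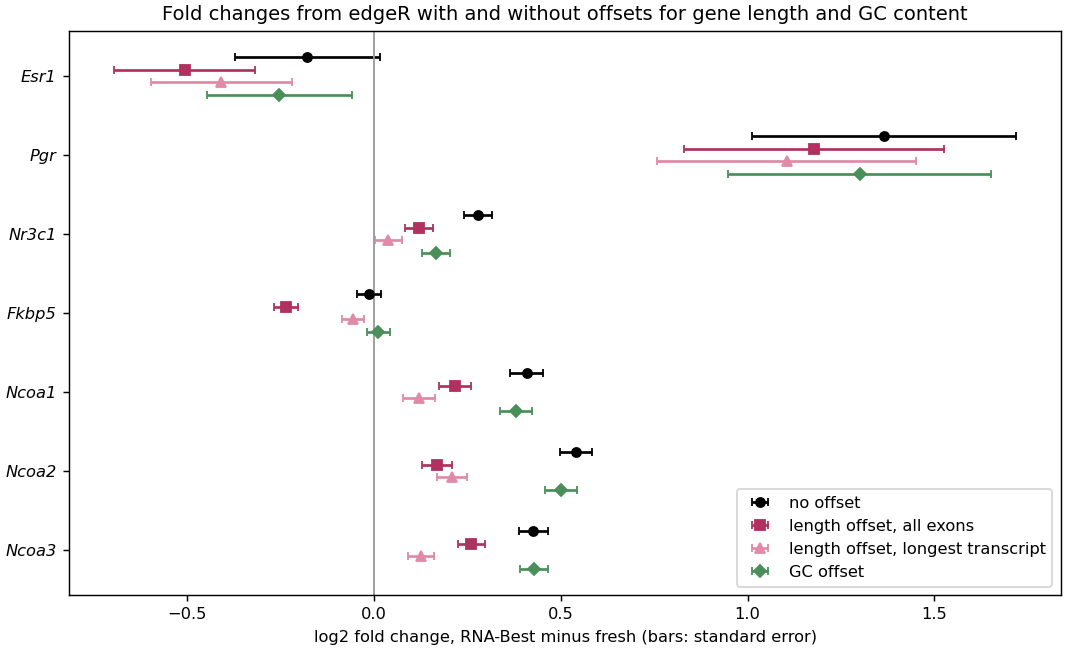
Log2 fold changes (RNA-Best minus fresh, horizontal axis) of the 7 tested genes with standard errors, without an offset (black), with a length offset from all exons (red squares) or the longest transcript (pink triangles), and with an offset for GC content (green). The values of the 3 coactivators and Nr3c1 move toward 0 under both length offsets, and Pgr stays above 1.

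To place these 9 among their partners, 7 lists of related genes with 131 members were read from the same fit. Of these, 30 were not tested, 35 passed the test as higher and 38 as lower. The counts of each list stand beside 26% higher and 24.8% lower over all tested genes, beside 52.3% and 8.28% for genes with at least 5 kb of exon, and beside 10.2% and 34.7% for shorter ones. Counts with the length offset stand beside 18.6% higher and 19.5% lower over all tested genes. Of 24 other coactivators tested, 18 were higher and 3 lower. Their median log2 fold change was 0.27, beside -0.01 for all tested genes and 0.17 for genes with at least 5 kb of exon. With the length offset the median of these coactivators was 0.096. Their median exonic length was 8.11 kb. Kmt2d, a histone methyltransferase, had a log2 fold change of 0.79, Ep300, an acetyltransferase that the steroid receptor coactivators recruit, 0.58, and Ppargc1b 0.50. The helicases Ddx5 (1297 CPM in fresh libraries) and Ddx17 rose by 0.22 and 0.25. With the length offset these values were 0.34 for Kmt2d, 0.23 for Ep300, 0.53 for Ppargc1b, 0.14 for Ddx5 and 0.09 for Ddx17, all still called. Psmc5, Sra1 and Pelp1 were the 3 that fell, at -0.22, -0.19 and -0.13 on the log2 scale. After the length offset 13 were higher, none of these 3 was called any more (-0.04, -0.05 and -0.08), and the 1 lower gene was Ube3a, named after its values were seen, which went from a called 0.31 to a called -0.15 (adjusted p = 0.00322, edgeR).

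Of 15 corepressors tested, 8 were higher and 5 lower, with a median of 0.17. Lcor, a ligand-dependent corepressor, was at 3.52 ± 0.36 CPM in fresh and 14.1 ± 0.56 CPM in RNA-Best libraries (SD, n = 3 each), and differed by 1.93 on the log2 scale (adjusted p = 7.09e-17, edgeR), or by 1.77 with the length offset. Nrip1 and Ncor1 had log2 fold changes of 0.63 and 0.61, or 0.35 and 0.29 with the length offset. Phb2 and the deacetylases Hdac1 and Hdac3 fell, at -0.24, -0.15 and -0.13. With the length offset 7 were higher and 5 lower, beside 18.6% and 19.5% of all tested genes, and the median was 0.07.

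Of 15 receptor chaperones tested, 0 were higher and 11 lower, with a median of -0.15. Cdc37, a kinase-directed partner of Hsp90, had a log2 fold change of -0.29 and Dnajb1 -0.26, or -0.47 and -0.19 with the length offset. The most abundant members were not called, Hspa8 at 1966 CPM in fresh libraries (-0.02, adjusted p = 0.610) and Hsp90ab1 at 1844 CPM (0.01, adjusted p = 0.704, edgeR). Their median exonic length was 3.14 kb. With the length offset 6 were lower and 1 was higher, which was Hsp90ab1 (0.10, adjusted p = 0.00146, edgeR). Over all tested genes that offset left 19.5% lower and 18.6% higher. The median of the chaperones was then -0.05.

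Of 16 other steroid and orphan receptors tested, 2 were higher and 7 lower. Nr2c2, an orphan receptor, was at 11.3 ± 2.22 CPM in fresh and 29.8 ± 1.10 CPM in RNA-Best libraries (SD, n = 3 each), with a log2 fold change of 1.31 (adjusted p = 3.26e-15, edgeR), and Thrb, a thyroid hormone receptor at 473 CPM in fresh libraries, had 0.28. Esrra, Nr0b1, Rxrb and Nr5a1, the last a gonadotrope lineage factor, fell, with log2 fold changes of -0.38, -0.26, -0.22 and -0.21. Under the length offset 2 of the list were higher and 4 lower, with Nr2c2 at 0.96, Thrb at 0.13 and Nr0b1 at -0.10.

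Known hormone-responsive genes did not move in one direction. Of 14 glucocorticoid-responsive genes tested, 3 were higher and 6 lower, with a median of -0.11. Zbtb16 rose from 4.38 to 7.75 CPM (0.75) and Klf9 from 13.1 to 18.3 CPM (0.43), while Per1, the most abundant, differed by 0.11. Tsc22d3, Nfkbia, Ddit4 and Cdkn1a fell, at -0.37, -0.33, -0.28 and -0.27. With the length offset 3 were higher and 4 lower, and the median was -0.01. Nfkbia and Ddit4 then stood at -0.16 and -0.12, and Per1 was not called (0.04, adjusted p = 0.325, edgeR). Of 8 oestrogen- and progesterone-responsive genes tested, 2 were higher (Greb1, 0.57, and Fosl2, 0.19) and 2 lower (Ctsd, -0.26, and Xbp1, -0.18). With the length offset 1 was higher and 3 were lower, since Fosl2 lost its call (-0.04, adjusted p = 0.475, edgeR) and Cxcl12, named after its values were seen, became a lower call (-0.26); Greb1 stood at 0.35, Ctsd at -0.13 and Xbp1 at -0.11. Of 9 steroid-metabolizing enzymes tested, 2 were higher and 4 lower. Star, the carrier of cholesterol into mitochondria, had a log2 fold change of 0.70 at 2.26 to 3.72 CPM, and Hsd17b7 0.20. Srd5a3, Hsd17b10, Hsd17b1 and Hsd17b12 fell, at -0.23, -0.22, -0.18 and -0.14. With the length offset 2 were higher and 1 lower, and Hsd17b10, Hsd17b1 and Hsd17b12 were not called (-0.03, 0.00 and -0.01). Hsd17b4 was at 0.00 (adjusted p = 0.940, edgeR).

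**Figure D5:**
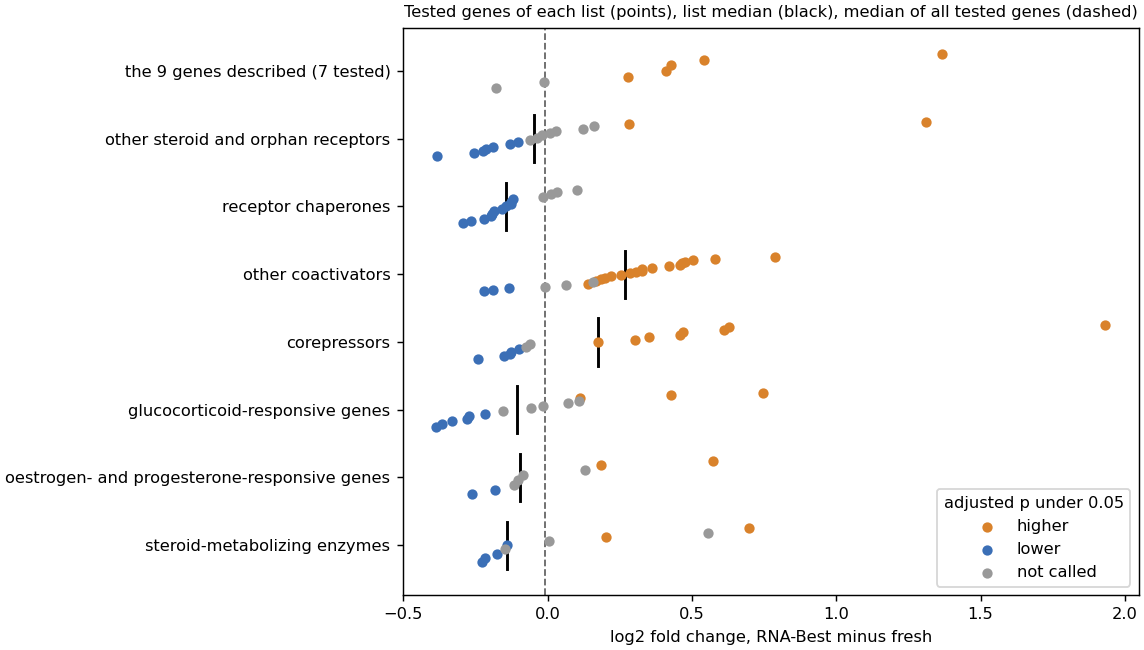
Log2 fold change (RNA-Best minus fresh, horizontal axis) of each tested gene of the set and of the 7 lists, with higher calls in orange, lower calls in blue and others in grey, and with the median of each list in black. The other coactivators have a median of 0.27 and the chaperones one of -0.15, beside the dashed line at the median of all tested genes, all without a length offset.

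The genes whose levels ran most closely with those of the set over the 6 libraries were found by Pearson correlation of log2(CPM + 1) among 10167 genes with a mean of at least 10 CPM. They were Zc3h4 for Nr3c1 (r = 0.9998), Lrrc8b for Ncoa1 (0.9992), Cnot1 for Ncoa2 (0.9992), Tns1 for Ncoa3 (0.9996), Pgap2 for Fkbp5 (0.9875), Eipr1 for Esr1 (0.9975) and Kansl3 for Pgr (0.9977). These values are a description over 6 points that share the split between the groups. For the coactivators and Nr3c1, 1504 to 1641 genes had an r above 0.95, for Pgr 868, for Esr1 167 and for Fkbp5 10.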

How the data were processed

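Polyadenylated RNA of 3 fresh and 3 RNA-Best samples was sequenced. The submitters' processing notes name STAR 2.5.1b, featureCounts 1.5.0-p1 and mm10; the authors deposited estimated counts for each gene without scaling, of which 9.36% to 16.3% per library were not whole (tolerance 0.001), so they were rounded. Genes were fitted together with edgeR 4.0.16 (R 4.3.3), TMM scaling, filterByExpr with a minimum count of 10, and Benjamini-Hochberg adjustment over the 14736 tested genes. CPM used column totals. On simulated counts, 68.8% of 1.2-fold and 98% of 2-fold changes were recovered, with 10 false calls among 14600 genes. Whether these rates hold for the measured counts, where fold change moved with gene length, was not tested. Alternatives were DESeq2 1.42.0, limma-voom 3.58.1, other scaling and filtering, length and GC offsets (loess span 0.5), thinning, and leaving out libraries. The offsets were refitted in another form after values of the first form had been seen, since the first form leaned to lower calls; both are given. Named genes were, per list, the 3 largest and 3 smallest non-overlapping called changes and the 2 most abundant genes; some genes that this rule names are not reported here. The members and lists were chosen with earlier results of these data known. Same-numbered libraries did not deviate together (correlations -0.00784 to 0.0102). Prmt1 and Sts were not analysed here.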

Additional observations from a re-analysis of the deposited data

How the results depend on the processing

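Of 298 values recomputed under other settings, 278 kept their direction and their side of the threshold, kept their place, or, for counts of calls, stayed within 1.5 times the main count. The others follow, with the larger moves of counts. With the replicate block, 5 genes of the set were called, as without it, beside 7472 of all 14736 tested genes, against 7479 without it. The block alone changed no call of the set. Added to the length offset, it took the calls of the set from 7 to 6, Esr1 being lost (-0.5218, adjusted p = 0.0530, edgeR). Those of all genes went from 5627 to 5558. The labels give no pairing of same-numbered libraries, and these did not deviate together, so the block is one more setting. Esr1 passed the threshold with the length offset (-0.5060), with its first form (-0.5385) and with that form and the replicate block (-0.5566). Nr3c1 lost its call with the length of the longest transcript (0.0387), with the first form of the length offset (0.0841), with that form and the replicate block (0.0852) and with that form and the longest transcript (0.0074). Ncoa1 lost its call with the first form and the longest transcript (0.0907). Fkbp5 became a called decrease with the length offset (-0.2348), with the replicate block and length offset (-0.2471), and with the first form (-0.2707, -0.2835 with the block and -0.1043 with the longest transcript); its sign turned with the GC offset (0.0116) and without RNA-Best replicate 2 (0.0047), uncalled in both. The listed genes called numbered 73, then 53 with the length offset and 47 with the longest transcript, while all genes called went from 7479 to 5627 and 5016; genes of the set called went from 5 to 7 and 4. Ncoa1 and Ncoa2 took places 5 and 4 with the longest transcript or with CPM. The cause of these moves was not tested. Leaving out single libraries, 5 genes of the set were called each time (Pgr among them, tested through its high group), with 66 to 75 listed genes and 6357 to 7273 of all genes; log2 fold changes ran from -0.214 to -0.139 for Esr1, from -0.0409 to 0.0047 for Fkbp5, from 0.2626 to 0.2912 for Nr3c1, from 0.3929 to 0.4441 for Ncoa1, from 0.5081 to 0.5606 for Ncoa2, from 0.3936 to 0.4544 for Ncoa3 and from 1.22 to 1.70 for Pgr. Esr1 and Pgr could not be tested after thinning, since both fell below the filter. Esr2 and Nr3c2 had at most 4 counts in any library, over depths from 4909418 to 47438746 counts, and no difference could be seen for either.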
